A study of Mus musculus with 22 samples.

Results

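Gpnmb, Mmp12, Fn1, Fam20c, Capg and Flt1 are 6 of the 19937 genes with a probe set of their own on a mouse gene array. They were chosen by their measured levels, because cuprizone raised them strongly in wild-type microglia and little in microglia without Trem2. Their values on the wild-type and knockout arrays of cuprizone and of control diet are therefore given as a description with no test. Each of them has a single probe set that maps to its symbol alone, and all 6 passed the filter on dim probe sets, which kept 11830 genes; Mmp12 and Flt1 passed it only through the wild-type arrays of cuprizone diets.

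RNA came from mouse microglia, the macrophages resident in the brain, sorted by CD11b, CD45 and F4/80 on their surface, and was hybridised to 22 arrays in 8 groups. Mice were wild type (WT) or Trem2(-/-) (knockout, KO), and strain, age and sex are not stated in the labels used. Cuprizone, a copper-binding compound that leads to loss of oligodendrocytes and myelin, made up 0.2% of the feed. Covi-Ox, a mixture of tocopherols with added alpha-tocopherol, made up 0.1%. The groups were WT control on chow (2 arrays), WT cuprizone (3), WT Covi-Ox (3), WT both (3), KO control on chow (2), KO cuprizone (3) and 2 further KO sets of 3 arrays. The treated diets lasted 4 weeks, after 2 weeks of chow for cuprizone alone and 2 weeks of Covi-Ox for both additives. The labels of the last 2 sets contradict themselves: KO set A has both additives in its titles but Covi-Ox alone elsewhere, and KO set B the reverse. Neither reading was chosen, so under either of them 1 of these sets was fed cuprizone. Whether replicates came from different animals is not stated, and p-values here reflect the spread among these samples alone, which may be technical.

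Microglia that meet myelin debris take up its lipids, and Trem2, a receptor that binds lipids and signals through the adaptor Tyrobp, is known to be needed for much of the gene programme that follows. The 6 genes span several jobs of such cells. Gpnmb is a glycoprotein of lysosomes and the cell surface that marks lipid-laden phagocytes. Fam20c is a kinase of the Golgi that phosphorylates secreted proteins. Mmp12, macrophage elastase, cleaves matrix, and Fn1 encodes fibronectin, a matrix protein bound by integrins. Capg caps actin filaments and belongs to the gelsolin family. Flt1 is a receptor for the growth factors Vegfa, Vegfb and Pgf and is best known from endothelium and monocytes.

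The sequences before the start sites differ widely, as 4 of the genes show here. RefSeq promoter windows (GRCm38.p6) were found for 5 of the 6 genes, and Fn1 is named only. Mmp12 has entries for 2 start sites. The 250 bases before the start are printed 5′ to 3′, with matches to the searched motifs in capitals. Gpnmb, Mmp12 and Flt1 are shown for motif matches in or near these bases and Fam20c for its base composition. Gpnmb lies at chr6:49036268-49036517 on the plus strand, Mmp12 (the downstream start) at chr9:7347124-7347373 on the plus strand, Fam20c at chr5:138754831-138755080 on the plus strand and Flt1 at chr5:147726012-147726261 on the minus strand.
Gpnmb: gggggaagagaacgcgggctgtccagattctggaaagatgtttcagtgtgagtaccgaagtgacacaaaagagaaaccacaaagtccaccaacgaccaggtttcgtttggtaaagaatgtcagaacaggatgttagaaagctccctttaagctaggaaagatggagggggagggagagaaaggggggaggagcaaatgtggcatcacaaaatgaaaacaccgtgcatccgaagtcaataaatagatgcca
Mmp12: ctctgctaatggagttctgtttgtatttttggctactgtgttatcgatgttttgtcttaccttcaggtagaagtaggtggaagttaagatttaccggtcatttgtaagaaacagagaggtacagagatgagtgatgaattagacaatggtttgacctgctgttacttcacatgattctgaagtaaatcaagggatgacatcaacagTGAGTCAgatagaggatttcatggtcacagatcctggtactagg
Fam20c: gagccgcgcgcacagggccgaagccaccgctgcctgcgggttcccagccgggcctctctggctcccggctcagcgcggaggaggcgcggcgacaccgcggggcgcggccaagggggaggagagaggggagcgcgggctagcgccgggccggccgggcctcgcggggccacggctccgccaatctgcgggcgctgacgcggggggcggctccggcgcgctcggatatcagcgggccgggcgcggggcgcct
Flt1: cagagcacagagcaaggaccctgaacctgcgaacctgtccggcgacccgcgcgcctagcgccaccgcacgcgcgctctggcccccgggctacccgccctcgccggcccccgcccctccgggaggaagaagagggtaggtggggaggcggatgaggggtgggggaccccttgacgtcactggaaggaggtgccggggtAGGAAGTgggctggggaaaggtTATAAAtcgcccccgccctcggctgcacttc

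G and C made up 39.6% of the bases printed for Mmp12, 47.2% for Gpnmb, 70.4% for Flt1 and 81.2% for Fam20c. Both strands of the whole window, which runs on for 50 bases after the start, were searched for 4 motifs, picked after the sequences had been seen. The AP-1 letters TGANTCA occurred in the Mmp12 window from base -44 to -38 and in the Gpnmb window from base 9 to 15 after the start, and 7.81% of 32851 windows of this length hold them. The PU.1 letters AGGAAGT occurred before Flt1 from base -53 to -47, and before the upstream start of Mmp12 on the other strand (9.35% of windows). The letters TATAAA stood from base -31 to -26 before Flt1 and from base 5 to 10 of the printed Mmp12 start (13.6% of windows). CACGTG, the E-box read by Mitf and its relatives, was not in any of these windows (7.15% of all windows). None of these letters was found in the Fam20c or Capg window. A match is a description of these letters and not a binding site.

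Array medians lay between 36.1 and 38.6 intensity units, and a level close to or under the median is imprecise. Trem2 (probe set 10445781) ran from 1020 to 1720 on the 11 WT arrays and from 84.5 to 114 on the 11 KO arrays, with no overlap. The microglial markers P2ry12 and Tmem119 and the gate markers Itgam, Ptprc and Adgre1 were at least 3.76 above the array median (log2) on every array. The mean of 22 immediate-early genes, which respond to cell dissociation, was 8.93 (log2) on the third WT cuprizone array. It was 9.25 and 9.30 on the second and the third KO cuprizone array, against 10.25 to 10.49 on the other 19 arrays. All 11 measured microglial markers were lower in WT both than in WT Covi-Ox, by -0.68 to -0.22 (log2, median -0.41). Of these, 8 were called at an adjusted p under 0.05 (limma), where 3.17% of all genes were called lower. In bulk RNA of sorted cells, fewer cells of a state and less RNA per cell cannot be told apart.

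The 6 genes were highest on the WT arrays whose diet held cuprizone. On each of the 6 arrays of WT cuprizone and WT both, each gene lay above its level on every one of the other 16 arrays. Of all genes tested 1.86% did so, and WT cuprizone was used to choose the 6. The gap between the lowest of the 6 arrays and the highest of the 16 was 2.77 (log2) for Mmp12, 1.68 for Fam20c, 1.47 for Gpnmb, 1.27 for Fn1, 1.17 for Capg and 0.79 for Flt1. Measured against the array's own median, Mmp12 and Flt1 were below it on all 16 of the other arrays, while Capg was above it on all 16. Gpnmb was above it on 4 of them, Fn1 on 3 and Fam20c on 7.

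**Figure D1:**
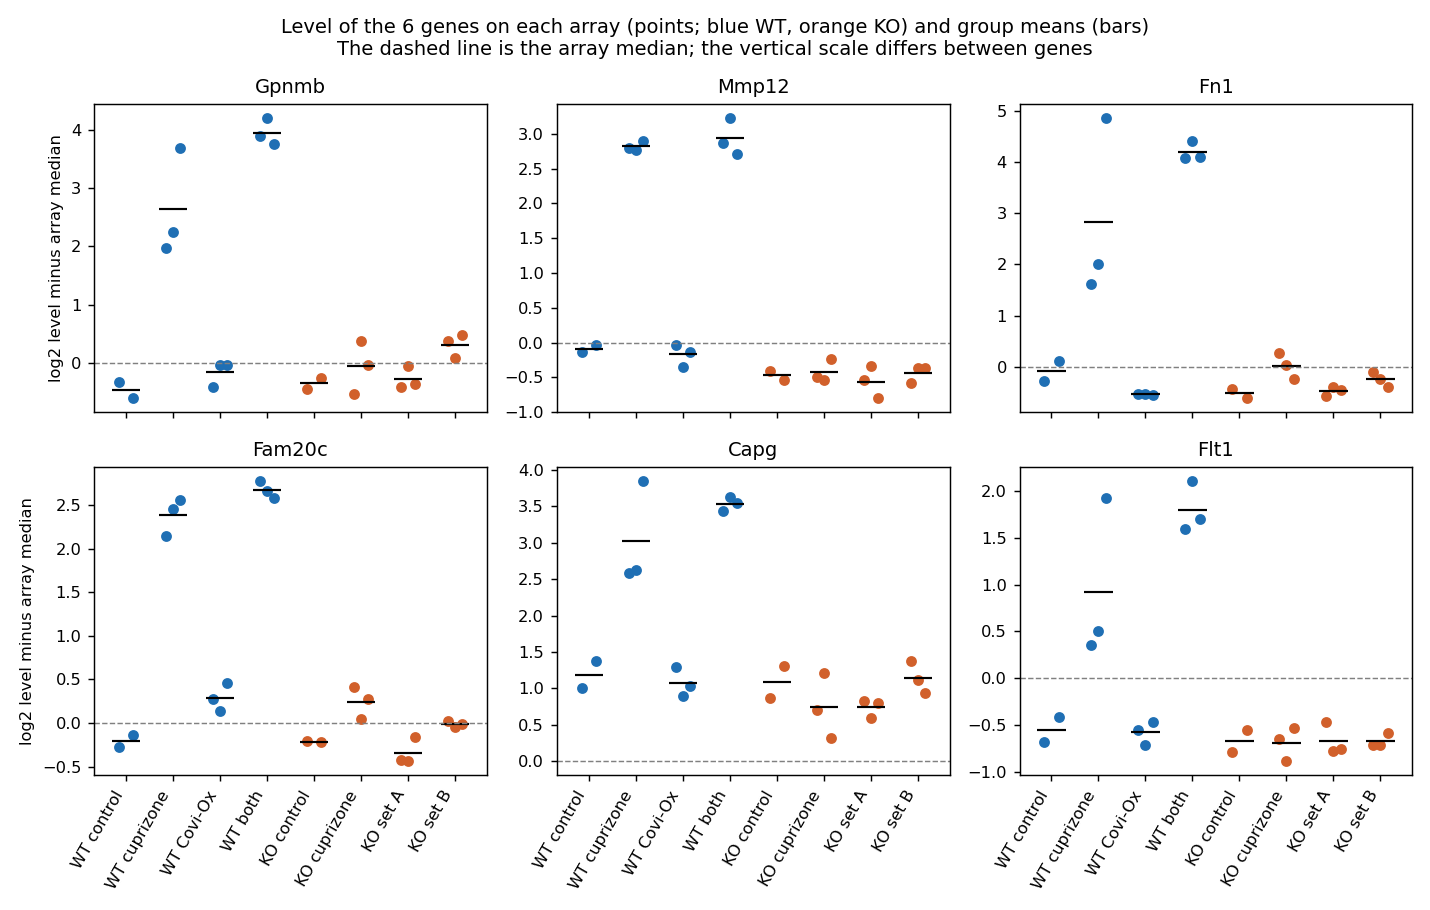
Level of each gene on each array as log2 minus the array's median (vertical axis, a separate scale per gene), by group (horizontal axis), with WT in blue, KO in orange and bars at group means of 2 or 3 arrays. The WT cuprizone and WT both arrays stand above all others for all 6 genes, and WT cuprizone 3 stands above the other WT cuprizone arrays for Gpnmb, Fn1, Capg and Flt1.

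WT both was compared with WT Covi-Ox, which are not the cuprizone and control arrays described without a test. This asks what cuprizone does in WT microglia when the diet also holds tocopherols. The 6 genes were chosen with earlier results of these data known, so this comparison is not shown to be independent of the choice. WT both also had 2 weeks of Covi-Ox beforehand, and the WT Covi-Ox labels give no such lead-in. Cuprizone and the longer Covi-Ox feeding therefore cannot be told apart. All 6 genes rose in WT both, by 2.37 to 4.71 on the log2 scale. Their median was 2.77, against -0.03 over all genes tested. With limma and Benjamini-Hochberg adjustment over 11830 genes, 4.65% of genes were called higher and 3.17% lower at an adjusted p under 0.05. Every WT both array lay above every WT Covi-Ox array for each of the 6, as for 13.1% of all genes. Mmp12 and Flt1 entered the tested genes only through arrays where they were high, and with no filter on dim probe sets all 6 were called as well.

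Gpnmb (probe set 10538187) had 27.2, 36.8 and 35.7 intensity units in WT Covi-Ox and 537, 676 and 498 in WT both. The WT Covi-Ox arrays stood close to their medians, and the rise was 4.10 ± 0.30 (log2, SE, n = 3 and 3), or 17.2-fold (adjusted p = 2.91e-08). On chow it had 29.8 and 23.8 in WT control and 144, 172 and 469 in WT cuprizone. The WT cuprizone arrays were all above WT control for Gpnmb and the other 5 genes (15.3% of all genes), and every WT both array was above every WT cuprizone array (5.37%). KO arrays ran from 27.4 to 31.9 in control, 26.7 to 50.1 in cuprizone, 28.1 to 35.8 in set A and 39.1 to 52.0 in set B. Set B was the highest of the KO groups and overlapped KO cuprizone but not set A (9.37% of all genes were higher in set B without overlap). From there down each group overlapped its neighbour.

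Fam20c (probe set 10526853) had 43.7, 41.4 and 50.4 units in WT Covi-Ox and 249, 230 and 221 in WT both. It rose by 2.37 ± 0.12 (5.18-fold, adjusted p = 5.72e-11). Chow values were 30.8 and 32.9 in WT control and 164, 198 and 214 in WT cuprizone. The KO arrays stood at 32.4 and 32.9 in control, 51.2, 40.1 and 45.9 in cuprizone, 27.8, 27.5 and 33.1 in set A and 38.2, 35.7 and 37.4 in set B. Among the low groups KO cuprizone and WT Covi-Ox overlapped each other at the upper end, and WT control, KO control and set A overlapped at the lower end. All low arrays lie within 0.46 above and 0.44 below the array median.

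Mmp12 (probe set 10583056) was well above the array median on the WT cuprizone and WT both arrays and below it on all others. It had 35.5, 29.6 and 33.4 units in WT Covi-Ox and 264, 342 and 243 in WT both, a rise of 3.09 ± 0.13 (8.54-fold, adjusted p = 1.09e-11). WT control had 34.0 and 35.3 and WT cuprizone 254, 245 and 273, a range that overlapped WT both. All 11 KO arrays lay between 21.3 and 32.2, below their medians.

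Fn1 (probe set 10355403) was near or below the array median outside the WT cuprizone diets. It went from 25.2, 26.0 and 25.3 units in WT Covi-Ox to 614, 772 and 631 in WT both, by 4.71 ± 0.48 or 26.2-fold (adjusted p = 2.73e-06). On chow it had 30.9 and 38.9 in WT control but 112, 145 and 1060 in WT cuprizone, the widest spread of the 6 within a group. KO arrays had 28.0 and 25.1 in control, 46.6, 39.6 and 32.5 in cuprizone, 25.1, 28.5 and 27.4 in set A and 35.1, 31.7 and 28.7 in set B. KO cuprizone overlapped WT control and lay above KO control without overlap (10.6% of all genes).

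Capg (probe set 10539135) was the one gene above the array median on all arrays. It had 89.1, 70.3 and 75.4 units in WT Covi-Ox and 395, 447 and 435 in WT both, a rise of 2.45 ± 0.26 (5.46-fold, adjusted p = 3.79e-06). WT control had 74.9 and 93.2 and WT cuprizone 222, 221 and 525. The KO values were 68.5 and 95 in control, 62.4, 89.1 and 47.4 in cuprizone, 66, 56.3 and 64.5 in set A and 98.1, 79.8 and 71.9 in set B. KO cuprizone and set A were the lowest groups, and below WT cuprizone each group overlapped its neighbour in the order.

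Flt1 (probe set 10535807) was below the array median on every array outside WT cuprizone and WT both. It had 24.5, 23.1 and 26.5 units in WT Covi-Ox and 109, 158 and 120 in WT both, a rise of 2.37 ± 0.26 (5.17-fold, adjusted p = 6.96e-06). WT control had 23.3 and 27 and WT cuprizone 46.9, 51.1 and 138. All KO arrays lay between 20.8 and 26.9, and each of these low groups overlapped its neighbour in the order. Because the low side lies below the array median, the fold of Flt1 is not exact, and the same holds for Mmp12, Fn1 and Gpnmb.

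Neither KO set reached the levels of WT both. All 6 genes were lower in set A than in WT both (5.6% of all genes were called lower) and in set B than in WT both (2.62%). For Fn1 the differences were -4.63 ± 0.48 in set A and -4.40 ± 0.48 in set B (log2). Gpnmb differed by -4.21 ± 0.30 (18.5-fold) and -3.61 ± 0.30 (12.2-fold), and Mmp12 by -3.47 ± 0.13 and -3.34 ± 0.13. For Fam20c the differences were -2.99 ± 0.12 and -2.65 ± 0.12, for Capg -2.77 ± 0.26 and -2.36 ± 0.26, and for Flt1 -2.45 ± 0.26 and -2.44 ± 0.26. The largest adjusted p was 2.86e-06 for set A and 5.86e-06 for set B. Since 1 of the sets was fed both additives under either reading, KO microglia on the diet of WT both are among these arrays. The 2 comparisons share the WT both arrays.

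Set against WT Covi-Ox, which was fed no cuprizone, the KO sets differed less. In set B none of the 6 was called (0.245% of all genes were called in either direction), and the differences ran from -0.28 to 0.49. In set A only Fam20c was called, with a difference of -0.62 ± 0.12 (adjusted p = 0.0279), where 0.093% of all genes were called lower. That call was lost without WT Covi-Ox 1 (adjusted p = 0.0922), WT Covi-Ox 3 (0.243), KO set A 1 (0.199) or KO set A 2 (0.188). The 95% confidence intervals of the other differences in set A were -0.74 to 0.53 for Gpnmb, -0.65 to -0.10 for Mmp12, -0.93 to 1.08 for Fn1, -0.87 to 0.22 for Capg and -0.62 to 0.47 for Flt1. A 2-fold difference lies inside the interval of Fn1 in set A. In set B it lies inside those of Fn1 (-0.69 to 1.32) and Gpnmb (-0.14 to 1.13). These intervals use a spread per gene shared by all 8 groups. For Fn1 the SD (log2) was 1.77 in WT cuprizone, against 0.09 in set A, 0.15 in set B and 0.03 in WT Covi-Ox. For Gpnmb it was 0.92, against 0.19, 0.22 and 0.24. The widths therefore take in the spread of WT cuprizone, which is not part of these comparisons.

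Set B and set A differ by cuprizone under either reading, and may differ by the Covi-Ox lead-in. No member passed between them, where 0.00845% of all genes were called. Set B minus set A was 0.60 for Gpnmb (95% interval -0.04 to 1.23), 0.41 for Capg (-0.13 to 0.95), 0.34 for Fam20c (0.09 to 0.58), 0.23 for Fn1 (-0.77 to 1.24), 0.14 for Mmp12 (-0.14 to 0.41) and 0.01 for Flt1 (-0.54 to 0.55). Adjusted p-values ran from 0.364 for Fam20c to 0.997 for Flt1. All 3 set B arrays lay above all 3 set A arrays for Gpnmb, Fn1, Fam20c and Capg, as for 9.37% of all genes. On chow the same description of KO cuprizone against KO control held for Fn1 and Fam20c (10.6% of all genes).

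**Figure D2:**
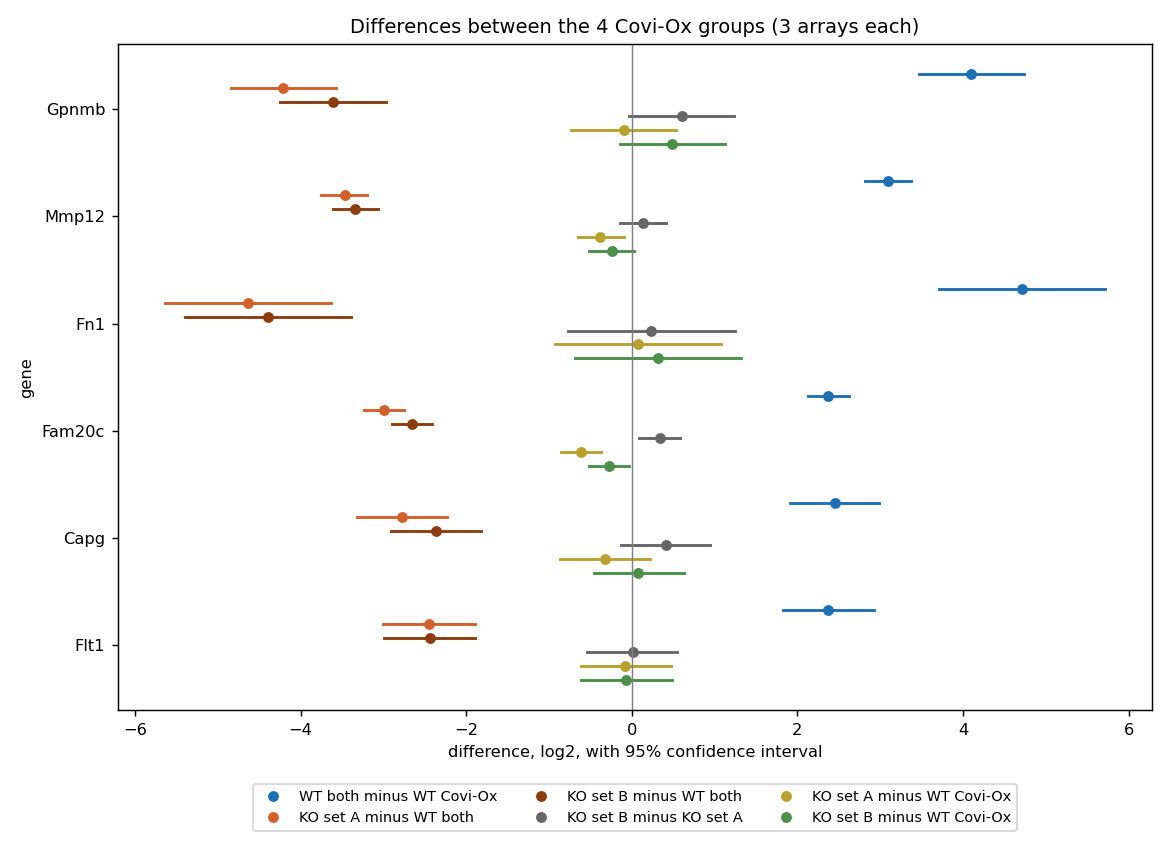
Differences in log2 level (horizontal axis) between the 4 groups fed Covi-Ox, 3 arrays each, for each gene (vertical axis), with points at the limma estimates and lines at 95% confidence intervals. WT both minus WT Covi-Ox lies between 2.37 and 4.71, the KO sets minus WT both lie between -4.63 and -2.36, and the 3 comparisons without WT both lie between -0.62 and 0.60.

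The effect of cuprizone on a Covi-Ox diet was compared between the genotypes. A difference of differences was tested under each reading of the labels. This effect takes in the Covi-Ox lead-in of mice fed both additives. The choice of the 6 genes rested on the same kind of contrast. All 6 genes passed under both readings. With set B as the KO mice fed both additives, the effect was smaller in KO by -4.48 ± 0.68 for Fn1 (adjusted p = 0.00139), -3.51 ± 0.43 for Gpnmb (0.000114) and -2.96 ± 0.19 for Mmp12 (1.54e-08). It was smaller by -2.37 ± 0.37 for Flt1 (0.00175), -2.04 ± 0.17 for Fam20c (4.71e-07) and -2.04 ± 0.37 for Capg (0.00722), where 0.634% of all genes were called lower. With set A in that place the differences ran from -2.38 ± 0.37 for Flt1 to -4.95 ± 0.68 for Fn1 (4.76% of genes called lower).

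Within the WT arrays of cuprizone diets the 6 genes did not vary alike. On WT cuprizone 3 Fn1 stood 8.31-fold above the mean of WT cuprizone 1 and 2 (log2 10.05 against 7.00). Gpnmb stood 2.98-fold above it, Flt1 2.82-fold and Capg 2.37-fold. For Mmp12 and Fam20c the ratio was 1.09 and 1.19. WT cuprizone 1 and 2 differed from each other by at most 1.30-fold, for Fn1.

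WT cuprizone 3 is also the WT array low in immediate-early genes, and the part of this in its levels was not tested. Every WT both array lay above WT cuprizone 1 and 2 for Gpnmb, Fn1, Fam20c, Capg and Flt1 (13.4% of all genes), but not for Mmp12. Flt1 on WT cuprizone 3 lay within the range of WT both, Fn1 and Capg above it, and Gpnmb below it. Without array 3 the mean of WT cuprizone minus WT control was 1.88 instead of 2.90 for Fn1, 2.57 instead of 3.09 for Gpnmb, 1.41 instead of 1.82 for Capg and 0.96 instead of 1.46 for Flt1. It was 2.85 instead of 2.89 for Mmp12 and 2.5 instead of 2.58 for Fam20c. Among the WT both arrays the highest was at most 1.45-fold the lowest, for Flt1.

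**Figure D3:**
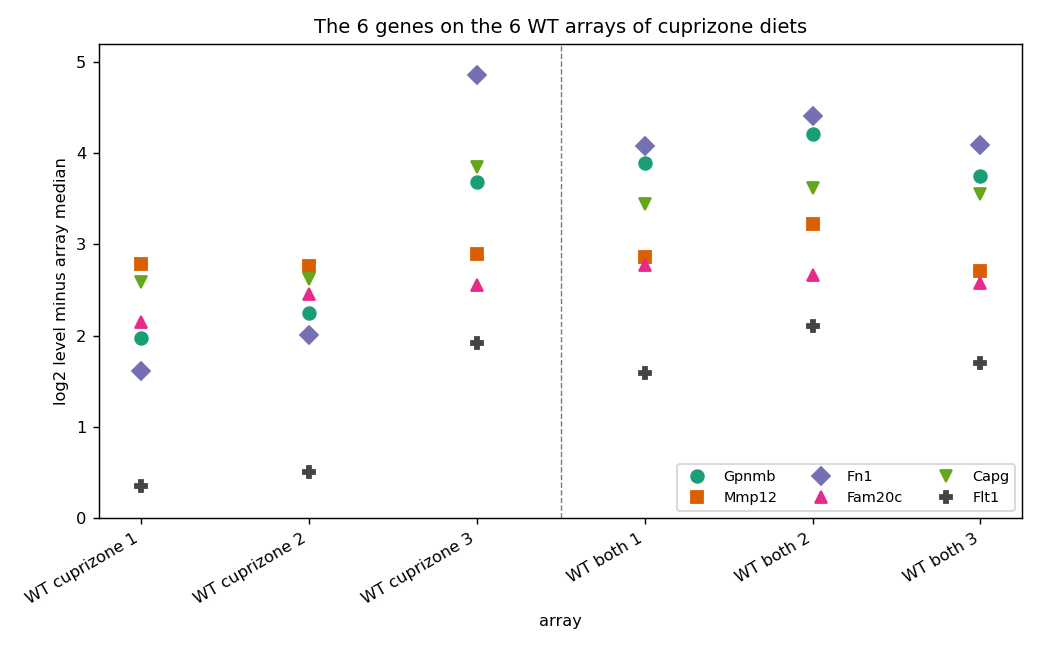
Level of the 6 genes, as log2 minus the array's median (vertical axis), on the 3 WT cuprizone and 3 WT both arrays (horizontal axis). Fn1, Gpnmb, Capg and Flt1 are higher on WT cuprizone 3 than on WT cuprizone 1 and 2. Mmp12 and Fam20c each vary less over the 6 arrays than the other genes do.

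Adding Covi-Ox to cuprizone is described only, because WT cuprizone was used for the choice. WT both minus WT cuprizone was 1.37 for Fn1, 1.32 for Gpnmb, 0.88 for Flt1, 0.53 for Capg, 0.29 for Fam20c and 0.12 for Mmp12 (log2). Gpnmb and Fam20c did not overlap between these groups (5.37% of all genes were higher without overlap), and the other 4 genes did. The Fam20c groups were separated by 214 against 221 units only. WT cuprizone 3 decided this for 3 genes: without it Fn1, Capg and Flt1 did not overlap either (13.4% of all genes). The differences were then 2.39 for Fn1, 1.84 for Gpnmb, 1.38 for Flt1, 0.94 for Capg, 0.37 for Fam20c and 0.17 for Mmp12. WT Covi-Ox minus WT control was 0.50 for Fam20c, without overlap (13.4% of all genes were higher so), and -0.44 for Fn1, also without overlap (14.8% were lower so). It was between -0.10 and 0.31 for the others.

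Relatives and partners of the 6 genes were taken from lists by family and pathway, with counts over list genes that passed the filter. In counts of these and the marker lists, rose, higher, fell and lower mean called at an adjusted p under 0.05 (limma). In WT both against WT Covi-Ox 4.65% of all genes were called higher and 3.17% lower. None of 7 genes on the secretory kinase list, which are 6 kinases or pseudokinases and the Golgi matrix protein Golga2, was called in WT both against WT Covi-Ox, and Fam20b, a relative of Fam20c, stood at -0.17 ± 0.14. Of 18 genes of the gelsolin family and actin end capping none was higher and 1 was lower, Eps8 (-0.53 ± 0.13, adjusted p = 0.017). Gsn, gelsolin itself, stood at 0.20 ± 0.10 (adjusted p = 0.275). The medians of these lists were -0.06 and -0.08, close to -0.03 for all genes.

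Of 9 matrix metalloproteinases and inhibitors 1 rose, Timp2, a tissue inhibitor of metalloproteinases, by 0.49 ± 0.11 (adjusted p = 0.00657). Mmp14, a membrane-bound protease, was at 0.13 ± 0.12. Of 15 fibronectin receptors and matrix partners 4 rose and 1 fell. Cd44, a receptor for hyaluronan, rose by 2.01 ± 0.14 (adjusted p = 1.18e-08). Postn, periostin of the matrix, rose by 1.93 ± 0.19, Sdc3, a syndecan, by 1.66 ± 0.21 and Thbs1, thrombospondin, by 0.89 ± 0.16. Itgav, an integrin chain that can bind fibronectin, fell by 0.28 ± 0.08 on the log2 scale (adjusted p = 0.0455). The median of this list was 0.04. Against WT both, 5 of the list were lower and 1 was higher in set A, and 4 were lower in set B. Those lower in both sets were Cd44 (-1.98 ± 0.14 and -1.73 ± 0.14), Postn, Sdc3 and Itga5. Itga5, a chain of a main fibronectin receptor, differed by -1.05 ± 0.18 in set A (adjusted p = 0.000792) and -0.88 ± 0.18 in set B (adjusted p = 0.00683). In WT both against WT Covi-Ox Itga5 stood at 0.56 ± 0.18 (adjusted p = 0.0724).

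Among 5 measured genes on the list of VEGF ligands and receptors, which also holds a plexin, 3 rose, with a list median of 0.42. Vegfa, a ligand of Flt1, rose by 1.34 ± 0.19 (adjusted p = 9.78e-05) and was lower in set A (-1.38 ± 0.19) and set B (-1.53 ± 0.19) than in WT both. The co-receptor Nrp1 (0.59 ± 0.17) and the plexin Plxnd1 (0.42 ± 0.11) also rose. Kdr and Flt4, the other receptors of the family, and the ligand Pgf did not pass the filter. Of 10 Gpnmb relatives and pigment cell type lysosomal genes 2 rose, Atp6v0d2, a proton pump subunit, by 2.94 ± 0.24 and the transcription factor Mitf by 0.53 ± 0.12. Tfe3, a relative of Mitf, fell by 0.34 ± 0.09 (log2), and the list's median was -0.11. Of 11 TREM2 and DAP12 signalling genes none rose and Inpp5d and Cbl fell, and Tyrobp stood at 0.11 ± 0.08 (adjusted p = 0.533).

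**Figure D4:**
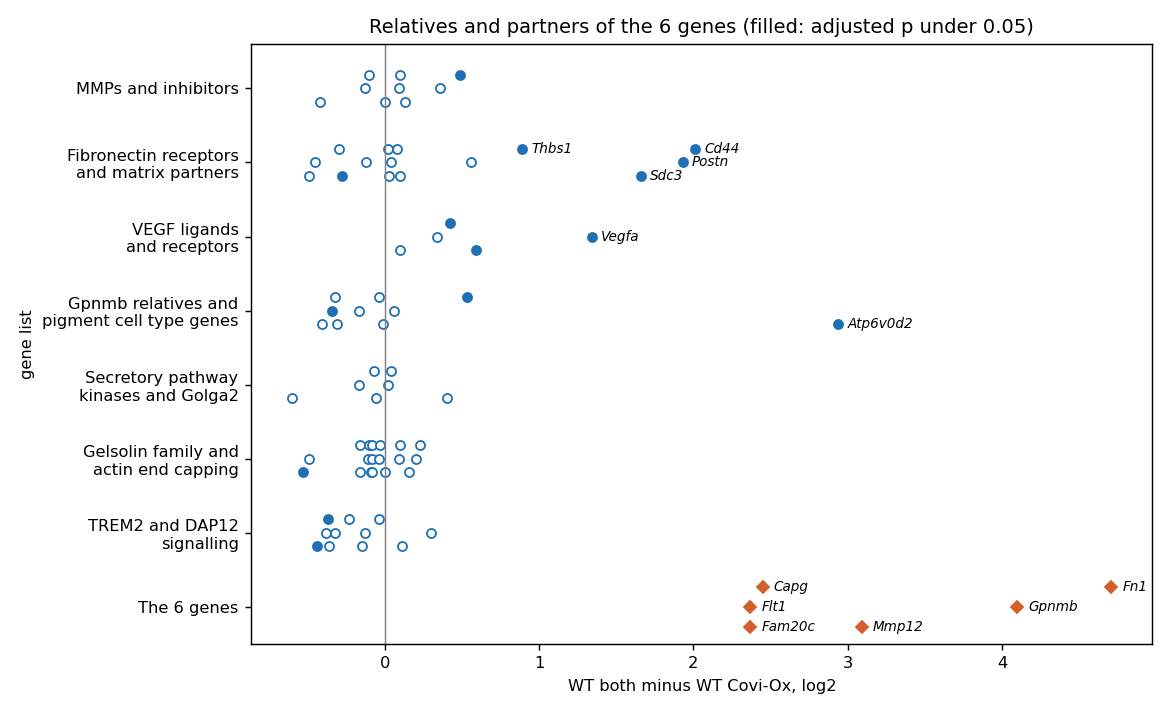
Difference between WT both and WT Covi-Ox (horizontal axis, log2, 3 arrays each) for genes of 7 lists that passed the filter (vertical axis), filled where the adjusted p was under 0.05, with the 6 genes as diamonds. Cd44, Postn, Sdc3, Vegfa and Atp6v0d2 lie above 1, and most genes of the other lists lie near 0.

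Flt1 and Fn1 are also made by other cells, so markers of those cells were read on the same arrays. The 13 endothelial markers averaged between -0.36 and -0.19 relative to the array median over all groups, and between -0.36 and -0.24 in WT both. Cldn5 and Tek lay below the median on every array and Kdr at or below it, while Pecam1 was above it on 21 of 22 arrays. In WT both 4 of the 13 had a group mean above the median, as in every other group except KO set B with 5. Only 5 of the 13 endothelial markers passed the filter and were tested. Of these, 1 was called higher in WT both than in WT Covi-Ox, the glucose transporter Slc2a1 (0.89 ± 0.13). Pecam1 was called lower (-0.68 ± 0.19). The 13 fibroblast and mural cell markers averaged between -0.49 and -0.21, with Dcn and Pdgfrb below the median on every array and Col1a1 0.57 to 1.01 above it. Of 7 tested fibroblast and mural markers Cspg4 alone was higher (0.91 ± 0.18).

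None of 7 tested monocyte markers was called in WT both against WT Covi-Ox. The mean of the 8 on the array ranged from -0.18 to -0.13 in WT Covi-Ox and from -0.08 to 0.15 in WT both. Of 12 border macrophage markers 4 were lower, Mrc1 (-1.09 ± 0.25), Pf4, Cd163 and Stab1, and Siglec1 was higher. The neutrophil gene S100a8 was higher by 2.66 ± 0.63 (adjusted p = 0.0111), while on chow S100a8 was lower in WT cuprizone (3.72 above the median) than in WT control (5.19). The neutrophil list averaged -1.03 to -0.67 in WT Covi-Ox, -0.30 to -0.01 in WT both, 1.39 to 1.45 in WT control and -0.04 to 1.23 in WT cuprizone. The part of endothelial, fibroblast, mural, monocyte, neutrophil and border macrophage RNA in the values of the 6 genes was not tested.

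Genes whose pattern was most like that of a member were found by the root mean square difference in log2 level over the 22 arrays, each gene centred on its own mean, among 11160 named genes. The same arrays chose the members, so these are descriptions. Axl, a receptor of apoptotic cells, was nearest to Gpnmb (0.38) and to Mmp12 (0.36) and second for Fam20c (0.32). Next to Gpnmb came Bhlhe40, a transcription factor (0.41), and Ch25h, an oxysterol-making enzyme (0.44). For Fn1 the nearest was Ch25h (0.29), then Gpnmb (0.47) and Bhlhe40 (0.52). A gene with no change over the arrays would be 1.81 from Fn1, 1.6 from Gpnmb, 1.44 from Mmp12, 1.15 from Fam20c, 1.07 from Capg and 0.95 from Flt1, so distances depend on how far a gene moved.

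Mmp12 had Fam20c (0.41) and the lectin receptor Clec7a (0.43) after Axl. Fam20c was closest to the galectin Lgals3 (0.24), with the lipid binding protein Fabp5 (0.38) in the third place. Igf1, a growth factor, was nearest to both Capg (0.30) and Flt1 (0.20). Flt1 (0.32) and Lgals3 (0.34) followed for Capg, and Egln3, an oxygen-sensing hydroxylase (0.24), and Ank, a membrane transporter (0.25), for Flt1. Among the 15 pairs of members Capg and Flt1 were closest (0.32) and Fn1 and Flt1 farthest apart (0.90), which are also the pair that moved least and the genes that moved most and least. These 9 other genes were picked for likeness over arrays that include WT both and WT Covi-Ox. Their rise between these groups therefore follows from the choice and is no separate result. It ran from 1.69 for Ank to 4.31 for Ch25h (log2).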

How the data were processed

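The authors deposited intensity values per probe set, linear and not log, made with RMA per the submitters' processing notes. No label gives the version, settings or genome build. The table holds 28098 probe sets, of which 21640 have a single gene in the platform's probe table, and 2 cells are missing. Log2 was taken before any test. The brightest probe set by mean stood for a gene. Genes had to exceed the 50th percentile of an array on 2 or more arrays. A fit with no filter was among the alternatives.

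Tests used limma 3.58.1 (R 4.3.3), in 1 model of 8 group means over all 22 arrays (14 residual degrees of freedom), with Benjamini-Hochberg adjustment over all genes of a comparison, two-sided, and calls at an adjusted p under 0.05. The spread is shared with the arrays used to choose the genes. A group that varies widely, such as WT cuprizone for Fn1, therefore widens every interval of that gene. Errors are standard errors of this model. RMA makes the arrays' distributions nearly equal, so a change in total RNA per cell cannot be seen. The number of arrays limits the precision: the median SE of a difference between 3 and 3 arrays was 0.136 (log2).

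The members, lists and motifs were chosen with earlier results of these data, or the sequences, known. Named genes are the 6 members, Trem2, the 3 nearest genes of each member (clones and unnamed loci left out), up to 4 called genes of each family list in order of size, and defining genes of the marker lists. Fam20b, Gsn, Mmp14, Tyrobp, Itga5, Itgav, Golga2, Flt4, Pgf, Slc2a1, Cspg4, Cd163, Stab1 and Siglec1 were named after their values were seen. Settings varied were a block by replicate number, a fit on the 12 arrays fed Covi-Ox, filters, normalizations, probe set summaries, moderation of the spread, weights for arrays, the threshold and the arrays left out. No 2 arrays were identical. The workflow was tested on simulated data.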

Additional observations from a re-analysis of the deposited data

Results flagged for a closer look

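The effect of cuprizone on a Covi-Ox diet, with the Covi-Ox lead-in before it, differed between the genotypes for each of the 6 genes. The test was of the difference itself (limma, adjusted over 11830 genes). The choice of the 6 genes rested on the same kind of contrast, so this result is not shown to be independent of it. Mmp12 and Flt1 entered the tested genes only through WT arrays of cuprizone diets. Of all genes, 0.634% were called lower with set B as both and 4.76% with set A as both. With KO set B as the mice fed both additives, the difference of effects (KO minus WT, log2) was -3.51 for Gpnmb, -2.96 for Mmp12, -4.48 for Fn1, -2.04 for Fam20c, -2.04 for Capg and -2.37 for Flt1. With KO set A in that place it was -4.70 for Gpnmb, -3.23 for Mmp12, -4.95 for Fn1, -2.71 for Fam20c, -2.86 for Capg and -2.38 for Flt1. Groups of 2 or 3 arrays are too small for a test of single outlying arrays.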

How the results depend on the processing

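In WT both against WT Covi-Ox, in each KO set against WT both, and in the difference of effects under both readings of the labels, all 6 genes kept their direction and their call under every alternative run, 17 for each comparison of groups and 23 for each difference of effects. The largest adjusted p among them was 0.000115, 4.64e-05, 9.31e-05, 0.026 and 0.00216. No member was called in set B against set A or in set B against WT Covi-Ox under any of the 17. In set A against WT Covi-Ox the count of 1, Fam20c, was 0 at an adjusted p under 0.01 and ran from 0 to 1 over the fits that leave out 1 array. The replicate number as a block changed no call of a member. Same-numbered arrays of different Covi-Ox groups correlated between -0.099 and 0.0809, and 5 of 12 arrays were most like the other arrays of their own number, so the numbers were not taken to pair the samples.

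Counts over all genes moved more. For WT both against WT Covi-Ox they ran from 444 to 1751 around 925, for set A and set B against WT both from 576 to 1879 around 1136 and from 260 to 885 around 460. Set B against set A had 0 to 91 around 1, set A against WT Covi-Ox 8 to 37 around 19 and set B against WT Covi-Ox 10 to 174 around 29. The difference of effects had 44 to 243 around 94 with set B as both and 398 to 1790 around 983 with set A as both. Array weights, the 12 arrays alone and leaving out the 3 arrays low in immediate-early genes gave more calls in these comparisons. Among the calls of set B against WT Covi-Ox 51.7% were higher, and 27.8% after centring each array on its median. All 6 genes were above WT control on every WT cuprizone array. Leaving out the 3 low arrays could not change this, and these groups were used to choose the genes.

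Levels below the array median limit what can be said of the low groups, and KO cuprizone without its low arrays is 1 array.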
